A study of Homo sapiens with 24 samples.

Results

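The 7 genes described here are the adenosine deaminases ADAR, ADARB1 and ADARB2 and the double-stranded RNA binding or associated proteins DHX9, ILF2, STAU1 and STAU2. They were taken by name, through their Ensembl identifiers, and are 7 of the 37416 genes counted. Total RNA of MDAMB468, BT549, MDAMB231 and HCC1806 was sequenced, 4 established lines of human breast cancer that the series calls triple-negative. Each line carried a lentiviral short hairpin RNA, either non-targeting (shNT, the control) or against ADAR1 (shADAR1), in 3 biological replicates per arm, giving 8 groups and 24 libraries. Control cells were therefore also infected, for 24 h, and selected, with 2 µg/ml puromycin for 72 h. The comparison asks whether paralogs or partners of ADAR changed in level when ADAR was lowered.

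ADAR enzymes convert adenosine to inosine within double-stranded RNA. ADAR, which encodes ADAR1, does so widely in repeat-derived duplexes and keeps the cell's own duplexes from triggering RNA sensors. Its paralog ADARB1 (ADAR2) is the main editor of certain neuronal codons, and ADARB2 (ADAR3) is a brain-enriched paralog with no known deaminase activity. DHX9 is an RNA helicase that unwinds such duplexes, ILF2 is a nuclear protein that works in complex with double-stranded RNA binding proteins, and the Staufen proteins STAU1 and STAU2 bind duplexes in messenger RNAs and act in their transport and decay.

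Library totals ran from 10370645 to 97218217 counts, and all 24 libraries were used. BT549 had almost no reads from the epithelial markers KRT7, KRT8, KRT18, KRT19 and EPCAM, each with a group mean of at most 0.747 CPM (a count scaled to library size, here with TMM, a correction for library composition). The other 3 lines had mean KRT8 levels of 467 CPM or more. EPCAM, however, was 8.945 CPM in MDAMB231 shNT, against 299.8 CPM in HCC1806 shNT and 253.1 CPM in MDAMB468 shNT. The mesenchymal marker VIM was 2309 CPM in BT549 shNT and 4305 CPM in MDAMB231 shNT. It was 7.961 CPM in HCC1806 shNT and 8.148 CPM in MDAMB468 shNT. Of the receptor genes behind the triple-negative name, PGR was at most 0.737 CPM in any group and ESR1 at most 0.52 CPM in BT549 and MDAMB231, while HCC1806 had ESR1 means of 19.05 and 23.78 CPM and MDAMB468 of 6.8 and 7.9 CPM. ERBB2 lay between 75.95 and 100.1 CPM. Of the markers of other cell types, leukocyte PTPRC reached at most 0.594 CPM and endothelial PECAM1 at most 4.506 CPM (MDAMB231). CD68, a lysosomal gene used as a macrophage marker, had group means of 86.31 and 91.04 CPM in MDAMB231, 45.41 and 48.68 in HCC1806, 21.06 and 20.34 in BT549 and 2.22 and 2.117 in MDAMB468, shADAR1 first. Its part in the line differences below was not tested. All 7 genes passed the filter on low counts, ADARB2 through HCC1806 alone. The files place ADAR (ENSG00000160710) on chromosome 1 from 154582062 to 154627999, ILF2 (ENSG00000143621) on chromosome 1 from 153661788 to 153671048 and DHX9 (ENSG00000135829) on chromosome 1 from 182839369 to 182887751. ADARB1 (ENSG00000197381) is on chromosome 21 from 45073853 to 45226560 and ADARB2 (ENSG00000185736) on chromosome 10 from 1177318 to 1737476. STAU1 (ENSG00000124214) is on chromosome 20 from 49113339 to 49188367 and STAU2 (ENSG00000040341) on chromosome 8 from 73420369 to 73747708. Strand use in counting is not given in the sources used here, and ILF2 shares 43 exonic bases with SNAPIN on the opposite strand.

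Of the 7 genes, 1 was called lower in BT549, HCC1806 and MDAMB468 and 3 in MDAMB231, and 0 were called higher in any line. The 1 was ADAR, the target of the hairpin, and the 3 were ADAR, STAU1 and STAU2. ADAR is also among the genes called lower in the average and the blocked fits below, and both medians include it. A call means a Benjamini-Hochberg adjusted p under 0.05 over 21352 genes, by the quasi-likelihood test of edgeR. Unless the replicate block is named, the fit held no term for the replicate number. Of all genes, 0.473% were called in BT549 (0.131% higher, 0.342% lower) and 2.01% in MDAMB231 (0.637% higher, 1.37% lower). The share was 0.0375% in MDAMB468, made up of 0.00468% higher and 0.0328% lower, and 0.0468% in HCC1806, made up of 0.0328% higher and 0.0141% lower. At an unadjusted p under 0.05, and with DESeq2, the number of the 7 that were higher was also 0 in every line. Outside HCC1806 these counts say nothing of ADARB2, which held 12 counts in 18 libraries there. In the mean of the 4 line effects, 3 of the 7 (again ADAR, STAU1 and STAU2) were called lower, 0 higher and 4 were not called. Of all genes, 2.96% were called there (1.26% higher and 1.7% lower). The median log2 fold change of the 7 in that average was -0.25, and -0.22 over 6 without ADARB2, against 0.02 over all genes tested. With the replicate number within each line as a block, 3 of the 7 were called lower in BT549 and MDAMB231, 1 in HCC1806 and MDAMB468 and 4 on average, and 0 higher in any of these. More genes of all kinds were called by that fit, namely 11.4% in MDAMB231 (5.09% higher, 6.33% lower), 5.14% in BT549 (2.48% and 2.66%), 2.1% in HCC1806 (1.47% and 0.632%) and 1.66% in MDAMB468 (1.01% and 0.651%). On average it called 13.2% (7.25% higher, 5.96% lower).

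Short sites in the 3′ untranslated regions (3′ UTRs) are shown first, because several of the genes below that fell hold one of 2 sequences of 7 bases. The sites printed are all from genes called lower in some fit, ZFR only with the replicate block or DESeq2. Other holders were not called, such as FMR1 (average log2 fold change 0.05) and EIF2AK2 (-0.005), and all holders among the lists are named further below. The sequences, ATCTTCA and GTGGGCC, had been noted in earlier results on these data, so their presence in genes that fell is no independent support for anything. The sequence of the hairpin is not given in the sources used here. Each line below is the sense strand, 5′ to 3′, from GENCODE 29 transcripts on GRCh38, with the 7 bases in capitals and their flanks in lower case:
ADAR: gcccactgttATCTTCActttcttt
STAU1: gatacctccaGTGGGCCgagagaca
WWP2, first site: cgtaactggaATCTTCAtaggtcat
WWP2, second site: tcatattgaaATCTTCAaggtgacc
ZFR, first site: gtgtctgtaaATCTTCAgtgttaaa
ZFR, second site: gtcttattaaATCTTCActgtattt
These windows lie at chr1:154582416-154582440 (ADAR, minus strand), chr20:49114771-49114795 (STAU1, minus strand), chr16:69941191-69941215 and chr16:69941212-69941236 (WWP2, plus strand) and chr5:32355732-32355756 and chr5:32355425-32355449 (ZFR, minus strand). STAU2 holds 1 copy of ATCTTCA in its 3′ UTR of 1001 bases. The 3′ UTRs of ADARB1 (4363 bases), ADARB2 (5875 bases), DHX9 (317 bases) and ILF2 (360 bases) hold neither sequence. Among 15956 tested genes with a 3′ UTR in that annotation, 11.9% hold ATCTTCA and 8.95% hold GTGGGCC on the sense strand, which was the only strand searched, since these are transcripts.

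ADAR was low in every shADAR1 library. In BT549 its level was 132, 117 and 155 CPM in shADAR1 replicates 1, 2 and 3, against 519, 503 and 527 CPM in shNT. HCC1806 had 86.5, 128 and 137 CPM against 370, 334 and 358 CPM. In HCC1806 the shADAR1 library numbered 1 was the low one. MDAMB231 had 54.6, 66.3 and 70.9 CPM against 276, 297 and 305 CPM. MDAMB468 had 122, 169 and 173 CPM against 408, 397 and 444 CPM. The arms did not overlap in any line. In bulk RNA, fewer cells with the transcript and less transcript per cell cannot be told apart. The remaining level was 26.1% of control in BT549 (95% confidence interval 21.1% to 32.2%), 33.1% in HCC1806 (26.8% to 40.9%), 21.9% in MDAMB231 (17.6% to 27.1%) and 37.1% in MDAMB468 (30.1% to 45.8%). The fall passed in each line, with edgeR adjusted p-values from 6.83e-09 in MDAMB231 to 3.18e-05 in MDAMB468. In a fit on the 6 HCC1806 libraries alone it was -1.60 on the log2 scale with an edgeR adjusted p of 0.213.

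Whether the fall of ADAR differed between lines depended on the fit. The joint edgeR test of the 4 line effects gave an F of 5.70 and an adjusted p of 0.622, where 0.0234% of genes were called. With the replicate number within each line as a block, F was 10.1 and the edgeR adjusted p 0.0129, where 4.69% of genes were called. Deviations of same-numbered libraries from their group means correlated at over 0.1 for every replicate of BT549, HCC1806 and MDAMB231. In MDAMB468 replicate 3 did not reach that value. The block was used in all 4 lines. Over the 12 same-numbered pairs the remaining ADAR level ran from 19.8% (MDAMB231) to 42.5% (MDAMB468). Gene-level counts do not separate the long interferon-inducible form of ADAR1 from the short constitutive form.

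ADARB1, the paralog with known deaminase activity, was not called higher in any line. Its levels in BT549 were 21.7, 18 and 17.7 CPM in shADAR1 against 21.8, 21.3 and 18.8 CPM in shNT. In HCC1806 they were 25.1, 24.7 and 18.8 CPM against 29.3, 25.6 and 21.1 CPM. The arms overlapped in both of these lines, although each shADAR1 library was below the shNT library of the same number. MDAMB231 had 25.8, 40.4 and 31.3 CPM against 32.6, 46.0 and 35.7 CPM, again with overlapping arms. MDAMB468 had 39.5, 42.3 and 35.7 CPM against 44.6, 45.4 and 49.2 CPM, and there the arms did not overlap.

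The level of ADARB1 in shADAR1 was 92.4% of control in BT549 (95% confidence interval 73.6% to 116%) and 90.3% in HCC1806 (71.9% to 113%). It was 85.2% in MDAMB231 (67.8% to 107%) and 84.3% in MDAMB468 (67.3% to 106%). None of these 4 passed the edgeR test (adjusted p 0.658 in MDAMB231 and 1 in the other 3 lines). The upper bounds of these intervals lay between 106% and 116% of control, and the average of 88% had a 95% confidence interval of 78.5% to 98.6%. That average, a log2 fold change of -0.18 (SE 0.0792), had an edgeR adjusted p of 0.3. With the replicate block it was -0.19 (SE 0.0388) with an edgeR adjusted p of 0.00202. ADARB1 was lower in shADAR1 in 12 of 12 same-numbered pairs, at 72.5% to 99.2% of the same-numbered control. The lowest was replicate 3 of MDAMB468, a pair whose deviations from group means correlated at 0.0651. The share of all genes that were lower in 12 of 12 pairs was not counted.

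**Figure D1:**
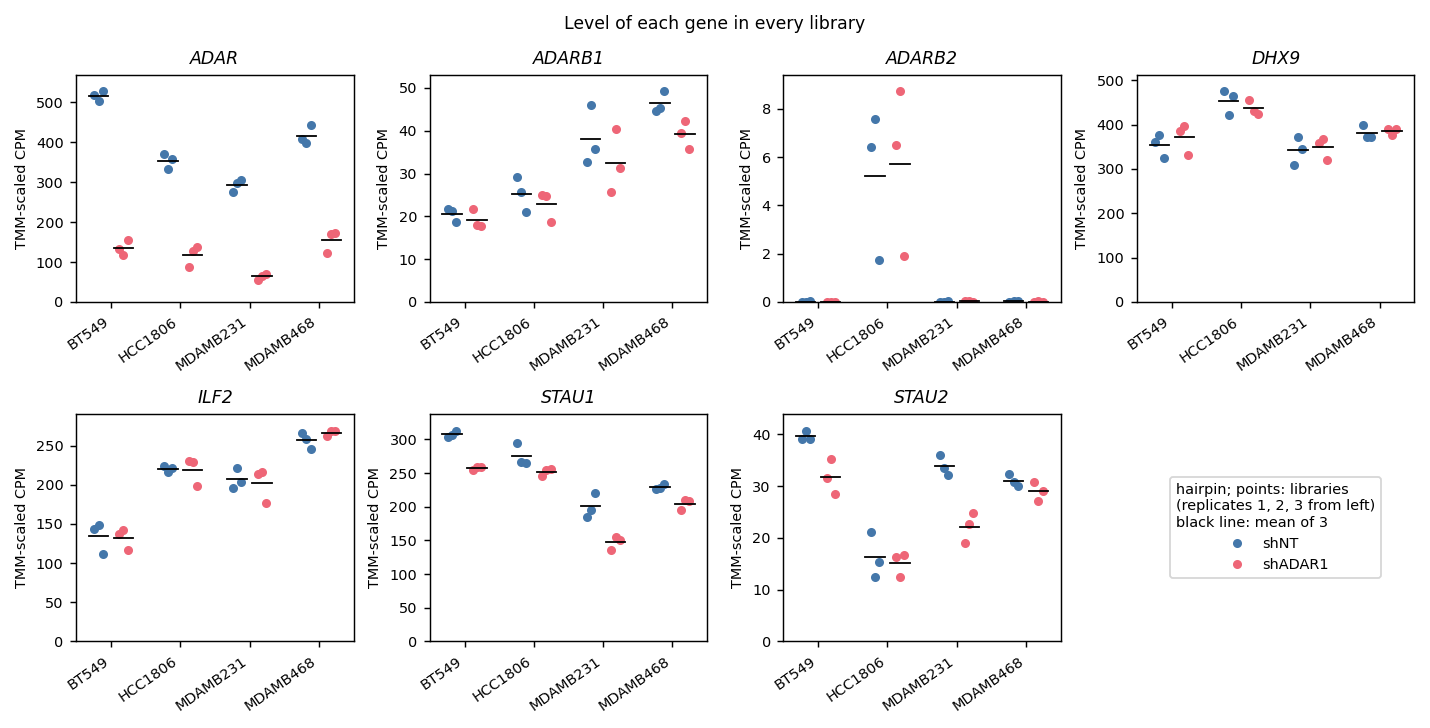
Each panel plots one gene as TMM-scaled CPM (y axis) in the 4 lines (x axis), with a point for each library, blue for shNT and red for shADAR1, and a black line at the mean of 3. ADAR separates the arms widely in every line, STAU1 separates them by less, ADARB1 stays level or slightly lower, and ADARB2 is above background in HCC1806 alone.

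ADARB2 was detected at more than 2 counts per library in HCC1806 alone. There it had 6.51, 8.72 and 1.89 CPM in shADAR1 and 6.42, 7.57 and 1.72 CPM in shNT, from 89 to 430 counts per library. The 2 libraries numbered 3 were the low ones in both arms, and the arms overlapped. Its log2 fold change in that line was 0.12 (95% confidence interval -0.99 to 1.24, edgeR adjusted p 1), an interval that holds a doubling. The 18 libraries of the other 3 lines held 12 counts in all, and 11 of them held 0. A count of 0 allows up to 3 counts, or 0.0331 to 0.277 CPM in those libraries, counting error only. A change of ADARB2 in BT549, MDAMB231 or MDAMB468 was not detectable at this depth, and no fold change is given for them.

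Per kilobase, ADAR made up most of the family in every group. RPKM here is CPM per kilobase of the gene length in the files. The summed level of ADAR, ADARB1 and ADARB2 was 63.84 ± 1.348 RPKM in BT549 shNT (SD, n = 3) and 18.01 ± 2.242 RPKM in shADAR1. It was 45.43 ± 2.297 against 16.86 ± 2.926 RPKM in HCC1806, in the order shNT and shADAR1. MDAMB231 had 38.85 ± 2.197 against 10.9 ± 1.561 RPKM, and MDAMB468 had 54.49 ± 3.148 against 22.41 ± 3.325 RPKM. In every line the family total was lower in shADAR1 by close to the difference in ADAR itself. As a difference of means, ADAR fell by 45.7 RPKM in BT549, fell by 28.4 in HCC1806, fell by 27.4 in MDAMB231 and fell by 31.4 in MDAMB468. The same difference for ADARB1 was -0.155, -0.248, -0.56 and -0.723 RPKM.

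As a share of the family, ADARB1 was larger in every shADAR1 group, with ADAR lower and ADARB1 itself not higher. It was 3.235% ± 0.291 in BT549 shNT and 10.71% ± 1.76 in shADAR1 (SD, n = 3). In HCC1806 it was 5.565% ± 0.784 and 14% ± 4.29, and in MDAMB468 8.505% ± 0.179 and 17.74% ± 3.28. MDAMB231 had the largest share, 9.767% ± 1.44 in shNT and 29.62% ± 3.6 in shADAR1, where the 3 libraries ran from 26.9% to 33.7%. MDAMB231 also had the lowest ADAR level of the 4 control arms, at 35.04 RPKM.

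**Figure D2:**
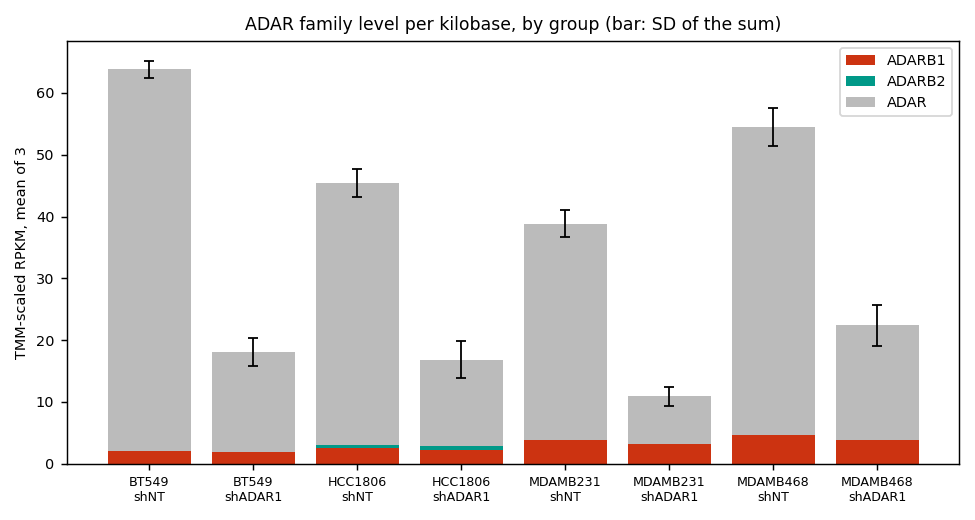
Stacked bars give the mean TMM-scaled RPKM (y axis) of ADARB1 (red), ADARB2 (green) and ADAR (grey) in each of the 8 groups (x axis), and error bars the SD of the sum over 3 libraries. The grey part shrinks in every shADAR1 group, while the red part stays between 1.909 and 4.633 RPKM throughout.

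The helicase DHX9 was not called in any line. It ran from 310 to 475 CPM over the 24 libraries, with overlapping arms in each line. In BT549 it was 386, 396 and 332 CPM in shADAR1 against 360, 377 and 325 CPM in shNT, and in MDAMB231 358, 368 and 320 CPM against 310, 372 and 345 CPM. Its average in shADAR1 was 101% of control (95% confidence interval 94.9% to 107%, edgeR adjusted p 1). Line values lay between 96.4% in HCC1806 and 105% in BT549, and the highest upper bound was the 119% of BT549.

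ILF2 was likewise not called in any line, with levels from 111 to 269 CPM over the libraries. MDAMB468 had 262, 268 and 269 CPM in shADAR1 against 266, 258 and 246 CPM in shNT, and the arms overlapped there and in the other 3 lines. On average it was at 99.7% of control (95% confidence interval 92.6% to 107%, edgeR adjusted p 1), with line values from 97.5% to 104%.

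The arms of STAU1 did not overlap in any line, with shADAR1 below shNT each time. The share of all genes whose arms did not overlap was not counted, for STAU1 or for the other genes described. BT549 had 254, 259 and 259 CPM in shADAR1 against 304, 307 and 313 CPM in shNT. HCC1806 had 245, 255 and 256 CPM against 294, 266 and 265 CPM, a gap smaller than the spread of the control arm. MDAMB231 had 136, 155 and 151 CPM against 185, 195 and 221 CPM. MDAMB468 had 195, 210 and 209 CPM against 227, 228 and 234 CPM.

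The average fall of STAU1 was 0.25 on the log2 scale, to 84.2% of control (log2 fold change -0.25, SE 0.037, edgeR adjusted p 0.000156). In MDAMB231 it fell to 73.7% of control (95% confidence interval 66.2% to 82%, edgeR adjusted p 0.000991). BT549 had 83.5% (75.1% to 92.9%, edgeR adjusted p 0.17), HCC1806 91.7% (82.4% to 102%, adjusted p 1) and MDAMB468 89.2% (80.2% to 99.2%, adjusted p 1). With the replicate block BT549 passed as well (log2 fold change -0.26, edgeR adjusted p 0.00478). In a fit on the 6 MDAMB231 libraries alone the change there was -0.44 with an edgeR adjusted p of 0.0753. The joint test of line differences did not pass for STAU1 (F 3.60, edgeR adjusted p 1; 0.0539 with the block).

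STAU2 was the scarcer Staufen per kilobase, with 4.402 RPKM in the BT549 controls where STAU1 had 75.16 RPKM. BT549 had 31.6, 35.3 and 28.4 CPM in shADAR1 against 39.0, 40.7 and 39.1 CPM in shNT. MDAMB231 had 18.9, 22.7 and 24.8 CPM against 36.0, 33.5 and 32.2 CPM, and in both lines the arms did not overlap. HCC1806 had 16.3, 12.4 and 16.7 CPM against 21.1, 12.4 and 15.4 CPM. MDAMB468 had 30.7, 27.1 and 29.1 CPM against 32.4, 30.8 and 30.0 CPM, and the arms of these 2 lines overlapped.

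In MDAMB231, STAU2 fell to 65.5% of control (95% confidence interval 52.9% to 81.1%, edgeR adjusted p 0.028), and on average to 82.3% (74% to 91.4%, edgeR adjusted p 0.0353). BT549 had 80.2% (65.2% to 98.8%, edgeR adjusted p 0.73) and passed with the replicate block (log2 fold change -0.32, edgeR adjusted p 0.0389). The average call was fragile: it was lost in 14 of the 24 fits that left out 1 library, with adjusted p-values up to 0.0777. Those libraries were BT549 shADAR1 replicates 1 and 3 and shNT 1, 2 and 3, HCC1806 shADAR1 2 and shNT 1, MDAMB231 shADAR1 1 and shNT 1 and 2, and MDAMB468 shADAR1 2 and 3 and shNT 1 and 2. The MDAMB231 call was lost on leaving out any library of that line except shADAR1 replicate 3 (log2 fold change -0.51 and edgeR adjusted p 0.208 without shADAR1 replicate 1), and on its 6 libraries alone (-0.61, adjusted p 0.0684). The joint test of line differences did not pass for STAU2 (F 2.69, edgeR adjusted p 1; 0.0619 with the block).

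**Figure D3:**
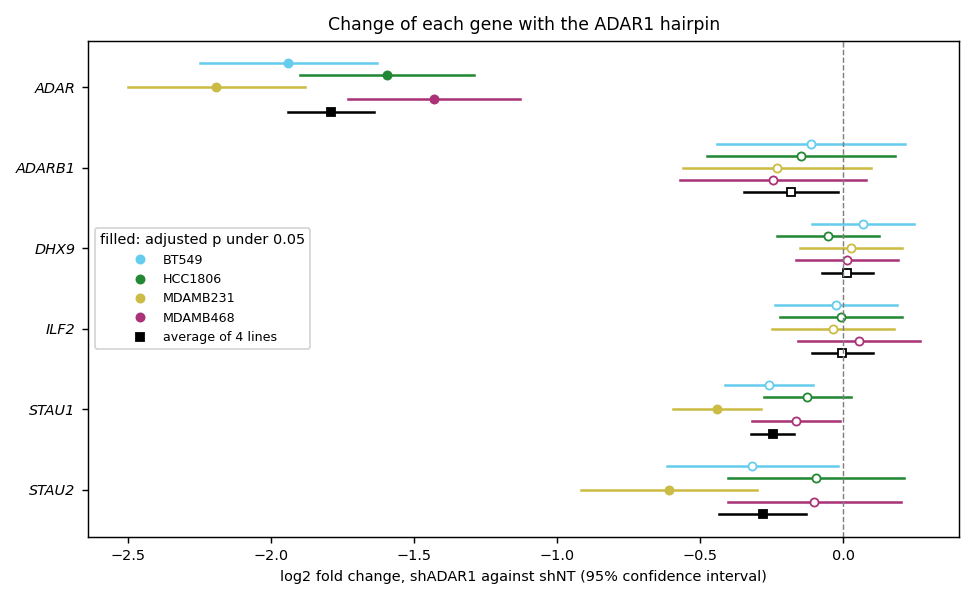
Points give the log2 fold change of shADAR1 against shNT (x axis) for 6 genes (y axis) in each line (colours) and on average (black squares), with 95% confidence intervals, and filled points have an adjusted p under 0.05. ADAR lies between -2.19 and -1.43, DHX9 and ILF2 straddle 0, and the Staufen genes and ADARB1 lie at or below 0. ADARB2 is left out because 3 lines hold almost no counts for it.

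Apart from ADARB2, which passed the filter through 1 line and is not tested here, the other 6 genes differed between the control arms of the lines (joint edgeR test over the shNT groups, adjusted p from 1.93e-07 for ILF2 to 0.000591 for DHX9). As 85.9% of all genes tested were called in that test, this is no particular feature of the 6. ADAR was highest in BT549 and fell through MDAMB468 and HCC1806 to MDAMB231, a span of 1.76-fold. No step between neighbours in that order passed the edgeR test (adjusted p 0.0661, 0.161 and 0.105), while BT549 differed from MDAMB231 (adjusted p 3.70e-05, with 56.5% of all genes called). The other pairs of lines had 63.5% of all genes called (HCC1806 against BT549), 61% (MDAMB468 against BT549), 59% (MDAMB231 against HCC1806), 62.9% (MDAMB468 against HCC1806) and 61.8% (MDAMB468 against MDAMB231).

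ADARB1 had another order, from MDAMB468 through MDAMB231 and HCC1806 to BT549, a span of 2.25-fold. Its middle step, MDAMB231 against HCC1806, passed (log2 difference 0.60, SE 0.16, edgeR adjusted p 0.00261). The other steps did not (adjusted p 0.133 and 0.117). BT549, which had the most ADAR per kilobase, thus had the least ADARB1. With 4 lines, no relation between the 2 levels was tested.

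STAU1 ran from BT549 through HCC1806 and MDAMB468 to MDAMB231 (1.54-fold). The steps from HCC1806 down to MDAMB468 and on to MDAMB231 passed (edgeR adjusted p 0.00374 and 0.0249), and that from BT549 to HCC1806 did not (0.0602). STAU2 ran from BT549 through MDAMB231 and MDAMB468 to HCC1806 (2.43-fold), with a drop to HCC1806 (log2 difference 0.94 from MDAMB468, edgeR adjusted p 8.01e-06) and no called step above it (0.198 and 0.488). The low line for STAU1 was therefore MDAMB231 and for STAU2 HCC1806. ILF2 was lowest in BT549 at 134.1 ± 19.94 CPM (SD, n = 3) and highest in MDAMB468 at 256.6 ± 10.04 CPM. DHX9 varied least, 1.33-fold, and was highest in HCC1806, which passed against each other line (edgeR adjusted p at most 0.0159).

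Other genes of these families gave the background to these changes. Of 16 other genes with a double-stranded RNA binding or DZF domain, 14 were tested. In the average 1 was called higher, 0 lower and 13 were not called, where 1.26% of all genes were called higher and 1.7% lower. The median log2 fold change of the 14 was -0.01, against 0.02 over all genes. At an unadjusted p under 0.05, 2 of the 14 were lower, and DESeq2 called 2 lower. DICER1, which cuts microRNA precursors, was the 1 that rose, by 0.18 (SE 0.0403, edgeR adjusted p 0.0106). It had 102, 108 and 97.4 CPM in BT549 shADAR1 against 80.6, 83.8 and 77.3 CPM in shNT. MDAMB231 had 198, 179 and 180 CPM against 161, 151 and 137 CPM, and in neither line did the arms overlap. HCC1806 did not show a rise, with 186, 169 and 176 CPM against 197, 164 and 184 CPM.

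Within lines DICER1 passed in MDAMB231 (0.31, edgeR adjusted p 0.0427), a call lost in 16 of 24 fits that left out 1 library, to an adjusted p of up to 0.265 (without MDAMB231 shADAR1 replicate 1). BT549 had 0.35 with an adjusted p of 0.0545, and 0.00011 with the replicate block. EIF2AK2, the sensor kinase PKR, had an average of -0.01 (95% confidence interval -0.11 to 0.10, edgeR adjusted p 1). In the blocked fit of the average 4 of the 14 were called, where 13.2% of all genes were called (7.25% higher, 5.96% lower). MRPL44 was higher (0.14, edgeR adjusted p 0.0426) beside DICER1, and SON (-0.11, adjusted p 0.00317) and ZFR (-0.10, adjusted p 0.0107) were lower. TARBP2, a partner of Dicer, was called in that fit in MDAMB231 alone (0.27, adjusted p 0.0468).

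Of 13 binders, transporters and regulators of ADAR proteins, all tested, 1 was called lower in the average, 0 higher and 12 were not called (median -0.01). The shares of all genes were 1.7% lower and 1.26% higher. Also with DESeq2, and at an unadjusted p under 0.05, 0 of the 13 were higher. WWP2, a ubiquitin ligase that acts on ADAR2 protein, fell by 0.24 (SE 0.0577, edgeR adjusted p 0.0198), a call lost without BT549 shNT replicate 1 (adjusted p 0.0519). In MDAMB231 it had 39.2, 47.6 and 47.7 CPM in shADAR1 against 62.7, 62.5 and 66.2 CPM in shNT, arms that did not overlap, and fell to 70.4% of control (edgeR adjusted p 0.0185). That call was lost without MDAMB231 shADAR1 replicate 1 (adjusted p 0.173), shNT replicate 1 (0.0506) or shNT replicate 3 (0.0919), and on the 6 libraries alone (0.0611). In MDAMB468 the arms did not overlap either, at 41.3, 50.3 and 49.9 against 54.3, 56.8 and 60 CPM, a change of -0.27 on the log2 scale with an edgeR adjusted p of 1, or 0.0249 with the block. They overlapped in HCC1806 and in BT549, which had 130, 131 and 122 against 136, 133 and 113 CPM. FXR1, a relative of the fragile X protein, had -0.15 (edgeR adjusted p 0.101) and was called with the block (adjusted p 0.000616) and without MDAMB231 shADAR1 replicate 2 (0.0239). RPS14 was called higher with the block in MDAMB231 alone (0.29, adjusted p 0.0183).

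The 3 tRNA adenosine deaminases ADAT1, ADAT2 and ADAT3 were tested, and none was called in the average by edgeR or DESeq2 (1, ADAT1, at an unadjusted p under 0.05). ADAT1 had -0.10 (edgeR adjusted p 0.294) and ADAT3 0.11 (adjusted p 0.808). With the block ADAT1 reached an edgeR adjusted p of 0.0497 in the average and 0.0252 in MDAMB231 (-0.25). That fit called 13.2% of all genes in the average and 11.4% in MDAMB231.

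**Figure D4:**
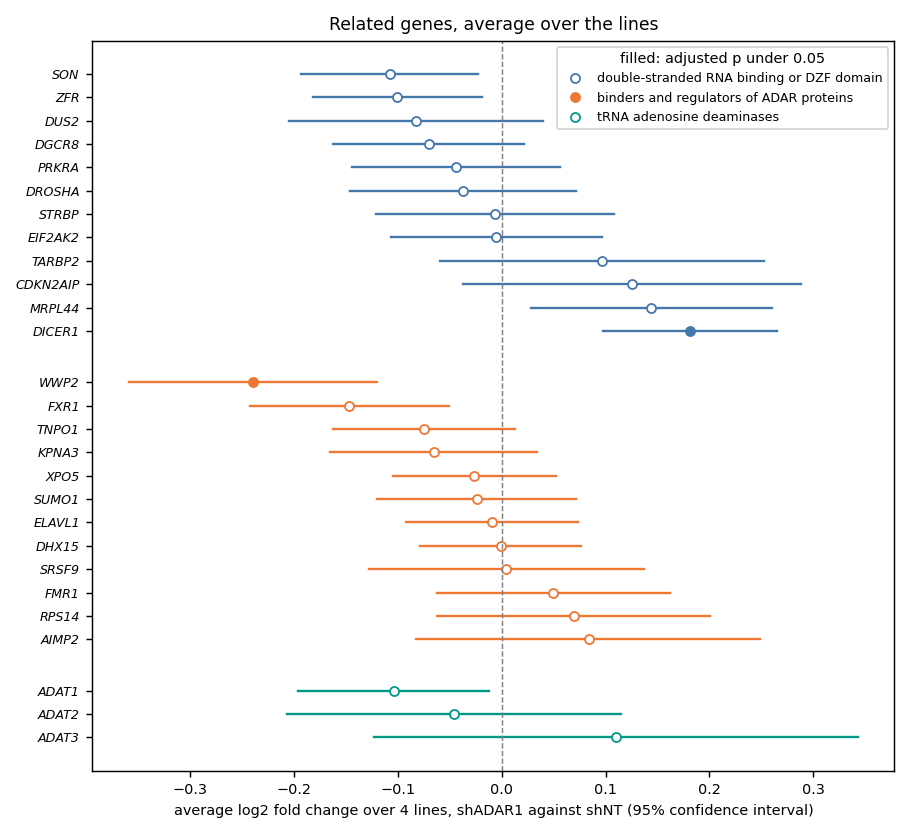
Points give the average log2 fold change over the 4 lines (x axis) of 27 related genes (y axis) with 95% confidence intervals, coloured by list, and filled where the adjusted p is under 0.05. DICER1 at 0.18 and WWP2 at -0.24 are the filled points. ADAD2, tested on few counts, is left out.

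Read beside the sites printed above, 9 genes other than ADAR among the 7 and the lists hold ATCTTCA in the 3′ UTR. They are STAU2, DUS2, SON, ZFR, WWP2, FMR1, FXR1, TNPO1 and KPNA3. Their average log2 fold changes ran from -0.28 (STAU2) to 0.05 (FMR1) with a median of -0.10, 8 of the 9 below 0, and 2 were called lower, or 5 with the replicate block, where 1.7% and 5.96% of all genes were called lower. STAU1, DGCR8, DROSHA, EIF2AK2 and ELAVL1 hold GTGGGCC alone, with values from -0.25 (STAU1) to -0.01 and a median of -0.04, and 1 of them, STAU1, was called lower in either fit. The 20 that hold neither, which include ADARB1, DHX9, ILF2 and DICER1, had a median of 0.0016, 10 of them below 0 (9 of 19 without ADARB2), and with the block 2 were called lower and 2 higher. ADARB1 and ADAT1 were the 2 called lower, and neither passed without the block. ADAD2, tested on few counts, was kept among the 20 and had their highest value, 1.06. The sequences came from earlier results on these data, so these values are no independent support for a part of the sites. The share of all holders of each sequence that were lower was not counted, and 3′ UTR length was not taken into account. Whether these sequences have a part in the falls was not tested.

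The genes most like ADAR over the 24 libraries, after each line's mean log2 CPM was subtracted, were GNB5 (Pearson r 0.96), MLX (0.958) and TAF11 (0.958), among 10999 genes compared. Their average log2 fold changes were -0.79, -0.86 and -0.73. The most opposite were KATNAL1 (r -0.938), MDM2 (-0.924) and SET (-0.908), with averages of 0.79, 0.70 and 0.42. The likeness follows the split between the arms, by which these genes were in effect chosen, so the values are a description with no test. Without that subtraction, where the lines set the pattern, ADARB1 was most like FHL3 (r 0.939), DHX9 most like HSPD1 (0.922), ILF2 most like AP1M2 (0.972), STAU1 most like ARRB2 (0.954) and STAU2 most like TRAK2 (0.948).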

How the data were processed

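Read counts of 24 libraries from 4 cell lines, made after ribosomal RNA removal per the labels' protocols, were analysed. Per the file headers the deposited files give for each gene a whole-number count, CPM and RPKM. The deposited CPM matched each count over its library total. The deposited RPKM gave the same shares of the ADAR family as the RPKM computed here. The submitters' processing notes name bcl2fastq, STAR, Subread, featureCounts and edgeR. The genome build is not given in the sources used here: of the genes, 34265 are in GENCODE 29 on GRCh38 and 31354 have the same start and end, among them 6 of the 7 described (ADAR differs slightly). A reference table gave symbols for 33972 genes.

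Counts were tested with edgeR 4.0.16 under R 4.3.3 (quasi-likelihood test), with filterByExpr (21352 genes kept), TMM scaling (factors 0.924 to 1.12) and 1 coefficient per group. The Benjamini-Hochberg adjustment ran over all of them, with a threshold of 0.05. DESeq2 1.42.0 was an alternative. Standard errors and 95% intervals derive from the fold change and F. The fit was tested on simulated data. Total counts ran from 10370645 to 97218217, and every replicate pair differed beyond counting noise (lowest chi-square 11.8 per degree of freedom). The labels call replicates biological without saying how cultures were kept apart, so p-values measure the spread between these libraries.

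Replicate numbers are shared by the arms of a line. Deviations from group means correlated between same-numbered libraries at 0.139, 0.158 and 0.25 in BT549. They correlated at 0.242, 0.332 and 0.443 in HCC1806 and at 0.204, 0.348 and 0.149 in MDAMB231. All of these were over 0.1, so the numbers were read as pairs in these lines. In MDAMB468 the correlations were 0.165, 0.166 and 0.0651, each above the highest correlation with another number (-0.0804, 0.0392 and -0.0243). The main fit ignores the pairing, which only the replicate block and the same-numbered pairs take into account. The members, the lists, the naming rule and the alternatives were chosen with earlier results of these data known. The rule named the 7 genes, every list gene called in the unblocked or blocked fit, and the genes most like each by Pearson r of log2 CPM (prior count 2, mean log2 CPM at least 2). The 3′ UTR of a gene is that of its protein-coding transcript with the longest coding sequence in GENCODE 29. The counts and medians of the lists include 2 genes that are not reported here by name, and the plot of related genes and the sets by 3′ UTR sequence leave them out.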

Additional observations from a re-analysis of the deposited data

Results flagged for a closer look

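Among the 7 genes and the lists of related genes, there were 3 for which the response to the hairpin was not the same in the 4 lines when edgeR's joint test took the replicate number as a block, while none of them passed without it. That blocked test called 1002 of all 21352 genes (4.69%), and the test without the block 0.0234%. ADAR had a blocked adjusted p of 0.0129 (0.622 without the block), with log2 fold changes from -2.19 in MDAMB231 to -1.43 in MDAMB468. DICER1 had a blocked adjusted p of 0.00444 (0.775 without), with 0.35 in BT549 and -0.04 in HCC1806. WWP2 had a blocked adjusted p of 0.00735 (1 without), with -0.51 in MDAMB231 and 0.01 in BT549. Groups of 3 libraries were not examined for single outlying values.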

How the results depend on the processing

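No called result changed direction under any alternative run. Outside the fits that left out 1 library, 303 of the main comparisons' values kept their side of the threshold or size, 36 moved, 6 newly passed and 3 no longer passed. As fitted, 101 genes were called in BT549, 10 in HCC1806, 429 in MDAMB231, 8 in MDAMB468 and 632 on average, 5 differed between lines and 18341 between control arms.

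With the replicate block the calls became 1098, 448, 2437, 354 and 2820 genes, and 1002 for line differences (ADAR F 10.1). In BT549, 3 of the 7 genes were then called (STAU1 -0.259, STAU2 -0.322), ADARB1 passed on average (-0.186), and 4 genes with a double-stranded RNA binding or DZF domain, 2 regulators and 1 tRNA deaminase were called. The block could not be used between the control arms.

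DESeq2 called 279, 40, 786, 42 and 1045 genes, 2 of the 7 in BT549 (STAU1 -0.277), 3 domain genes and 2 regulators. Fits on 6 libraries called 226 genes in BT549, 117 in MDAMB231 and 21 in MDAMB468. MDAMB231 kept 1 of the 7, ADAR, while STAU1 (-0.441) and STAU2 (-0.614) did not pass. The HCC1806 fit on its own called 0 genes and 0 of the 7 (ADAR -1.60), with 426 genes and 1 of the 7 at an unadjusted p under 0.05. RLE scaling called 2 regulators (FXR1 passing, adjusted p 0.0449). Without a filter HCC1806 had 18 genes and line differences 22. With at least 10 counts in every library BT549 had 185 genes and 2 of the 7 (STAU1 -0.267), MDAMB468 16, line differences 25, control arms 11287 among fewer genes tested, and 2 regulators passed. The deposited RPKM gave family sums of 61.51 (BT549), 42.93 (HCC1806) and 59.69 (MDAMB468) in shNT. The cause of these shifts was not tested.

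Leaving out 1 library at a time, calls ran from 61 to 122 genes in BT549, 4 to 15 in HCC1806, 202 to 526 in MDAMB231, 3 to 13 in MDAMB468, 2 to 14 for line differences and 0 to 2 regulators. STAU2 ran from -0.321 to -0.226 on average and from -0.698 to -0.512 in MDAMB231.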
